A study of Rattus norvegicus with 12 samples.

Results

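The electron transport chain and ATP synthase of the inner mitochondrial membrane were represented by 102 of the 8799 probe sets on a rat array, belonging to 56 genes. They were chosen by name alone: a probe set entered if its annotation held exactly 1 gene symbol, and that symbol began with Ndufa, Ndufb, Ndufc, Ndufs, Ndufv, Sdha, Sdhb, Sdhc, Sdhd, Uqcr, Cyc1, Cycs, Cox4, Cox5, Cox6, Cox7, Cox8 or Atp5. Complex I (NADH dehydrogenase) had 49 probe sets of 27 genes, complex II (succinate dehydrogenase) 2 of 2 genes, complex III (cytochrome bc1) 7 of 4 genes, complex IV (cytochrome c oxidase) 27 of 13 genes and the ATP synthase 17 of 10 genes. Of complex II these were Sdha and the assembly factor Sdhaf2. Cytochrome c had none, and 7 further probe sets with several symbols were not analysed here. The prefixes also took in the complex I assembly factor Ndufaf3 with 3 probe sets, the ATP synthase inhibitor Atp5if1 with 4 and a pseudogene, Cox6c-ps1, with 1. Ndufa4 is counted under complex I by its prefix, although its product is known as a subunit of complex IV.

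In mitochondria, complexes I and II take electrons from NADH and succinate, complex III passes them to cytochrome c, and complex IV hands them to oxygen. Complexes I, III and IV pump protons, and the ATP synthase uses the return of the protons to make ATP. The liver burns fatty acids in mitochondria, and the NADH and reduced flavins of that oxidation enter this chain. Most subunits are encoded in the nucleus, a few of them with separate liver and muscle forms, and a core is encoded in mitochondrial DNA.

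The RNA came from livers of male Sprague-Dawley rats that weighed 150 g at the start and were overfed by 17% for 21 days. The rats were fed by total enteral nutrition, a liquid diet given through a tube to the stomach, and this strain, overfeeding and route were common to all groups. The 4 diets held 5% or 70% fat as corn oil, rich in polyunsaturated fatty acids, or 5% or 70% fat as olive oil, rich in monounsaturated fatty acids, and each had 3 arrays. Diets were isocaloric, so more fat came with less carbohydrate and these cannot be told apart. RNA was pooled before labelling (8 ug per array). How many rats went into a pool is unknown here, and p-values reflect pool-to-pool spread only.

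All values are log2 differences from a probe set's own median over the 12 arrays, so no level of a gene is known and no probe set can be set against another by level. For the same reason the label liver could not be checked by the level of hepatocyte markers. The arrays differed by oil in a check of the RNA. The 3'/5' index, the mean log2 difference between control probe sets at the 3' and 5' ends of actin and GAPDH, lay between 0.16 and 1.5 on the 6 corn oil arrays and between -0.43 and -0.23 on the 6 olive oil arrays (difference 1.35, two-sided exact permutation test, p = 0.00216). Oil and index therefore cannot be told apart. From 5% to 70% fat the change in the index was -0.56 for corn oil (p = 0.2, exact permutation) and 0.018 for olive oil (p = 0.8, exact permutation); 3 against 3 arrays cannot give a p below 0.1. Within the family, pool 3 of 70% corn oil stood apart. Its median over the 102 probe sets was -0.14, with 71 of them below 0, against 0.01 and 0.04 in the other pools of that diet and 0.06 over all probe sets on the same array. The other 11 arrays had family medians between -0.06 and 0.16.

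**Figure D1:**
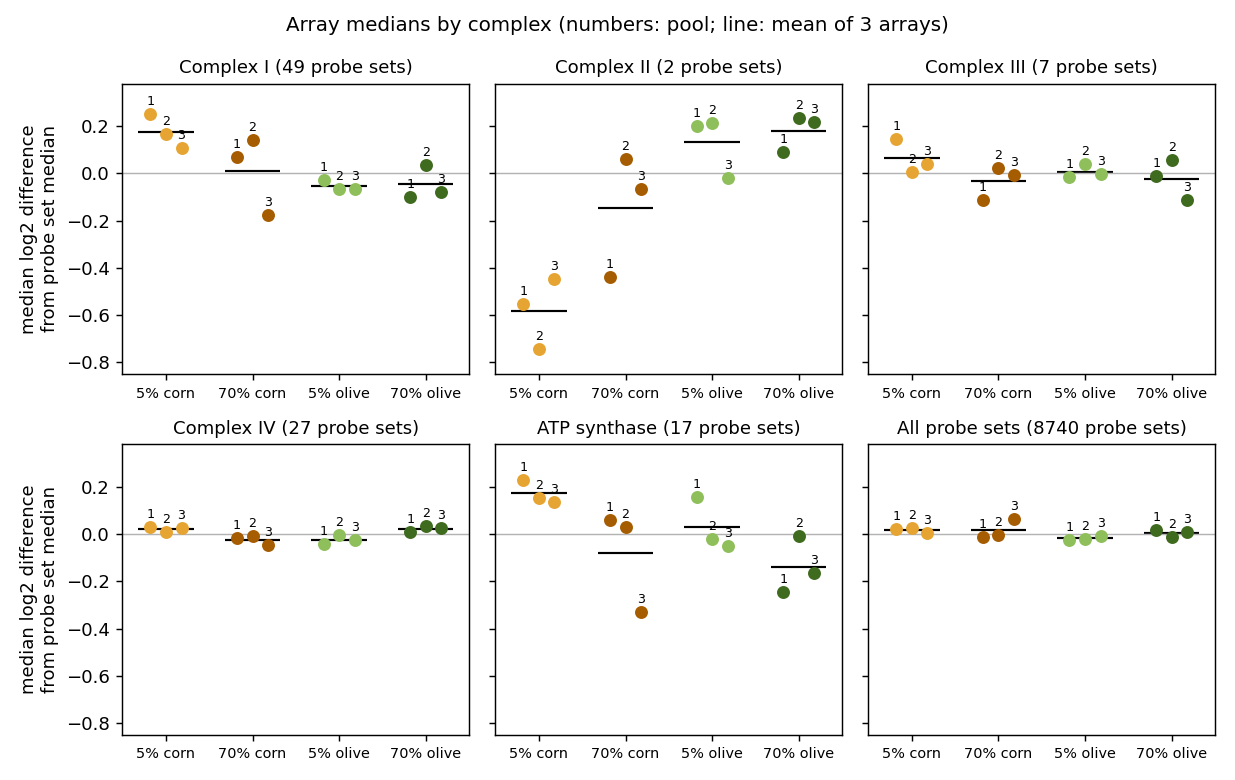
Median log2 difference from each probe set's own median (vertical axis) on each of the 12 arrays, by complex and for all 8740 probe sets tested; points are arrays numbered by pool, lines are means of 3 arrays. Complex I and the ATP synthase lay lowest on pool 3 of 70% corn oil, at -0.18 and -0.33, and complex II lay below 0 on all 3 arrays of 5% corn oil.

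Promoters from RefSeq (build GRCr8, 250 bases before to 50 after each gene's start) were found for 47 of the 56 genes. Atp5pd, Cox4i2, Cox6a1, Cox6c, Cox6c-ps1, Cyc1, Ndufa8, Ndufb9 and Uqcr11 were not matched. Factors known to act on nuclear genes of the chain include NRF1, the ETS family factor GABP and YY1, and letters of their motifs were searched on both strands. The NRF1 letters GCGCANGCG stood in 9 of the 47 promoters (19.1%, against 5.8% of all 33469 promoters of the table). The ETS letters CCGGAAG stood in 10 (21.3%, against 8.75%), and the YY1 letters AAGATGGC in 11 (23.4%, against 3.17%). The letters TCAAGGTCA, bound by ERR receptors, stood in 0 of 47 (0.43% of all). The promoters printed here are those of Ndufa6, the only probe set past the test between fat levels, of Atp5po, whose probe sets differed by oil in opposite directions, and of Sdha, the catalytic subunit of complex II. They lie at chr7:115750268-115750567 on the minus strand, chr11:44657434-44657733 on the minus strand and chr1:30764303-30764602 on the plus strand, are printed 5′ to 3′, and capitals mark the motif letters. In Ndufa6 the capitals are, in order, an ETS, an NRF1 and a YY1 match, in Sdha 3 NRF1 matches, and in Atp5po an NRF1 match on each strand, overlapping but for 1 base at either end, and a YY1 match. The other matches do not overlap. A match describes the letters only.
Ndufa6: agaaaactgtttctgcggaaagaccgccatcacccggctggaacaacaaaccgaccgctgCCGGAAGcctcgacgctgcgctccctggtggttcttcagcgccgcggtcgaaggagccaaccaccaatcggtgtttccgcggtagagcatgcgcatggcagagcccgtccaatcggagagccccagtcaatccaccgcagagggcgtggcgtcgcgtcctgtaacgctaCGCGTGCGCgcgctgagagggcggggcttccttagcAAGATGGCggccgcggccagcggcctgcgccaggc
Atp5po: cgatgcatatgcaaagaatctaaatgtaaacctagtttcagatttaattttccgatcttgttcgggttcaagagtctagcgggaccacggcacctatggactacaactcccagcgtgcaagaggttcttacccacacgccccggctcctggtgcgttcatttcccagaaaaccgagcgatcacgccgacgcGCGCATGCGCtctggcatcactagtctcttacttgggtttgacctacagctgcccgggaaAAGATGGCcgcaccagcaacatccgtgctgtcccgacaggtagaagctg
Sdha: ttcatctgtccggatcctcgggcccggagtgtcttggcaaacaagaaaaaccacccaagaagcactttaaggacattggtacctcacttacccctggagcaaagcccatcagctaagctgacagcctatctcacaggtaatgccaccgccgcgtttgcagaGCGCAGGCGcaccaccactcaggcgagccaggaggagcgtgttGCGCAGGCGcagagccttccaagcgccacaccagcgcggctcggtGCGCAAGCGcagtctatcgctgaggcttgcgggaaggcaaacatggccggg

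With corn oil, 1 of the 102 probe sets fell between 5% and 70% fat and 0 rose (limma, Benjamini-Hochberg adjusted over 8740 probe sets). The background was close to this, since 0.801% of all probe sets fell, 1.3% rose and 2.11% did either. The family's median was lower than that of all probe sets: its median log2 change was -0.19 against -0.01 over all probe sets, and 76 of 102 members (74.5%) were below 0 against 51.7% of all. At an unadjusted p under 0.05 there were 35 members (34.3%), against 18.8% of all probe sets. On 28 members the 3 arrays of 70% corn oil all lay below those of 5% corn oil (10.4% of all probe sets did), and on 4 they all lay above (8.51% of all did). By complex the medians were -0.22 for complex I, 0.43 for complex II, -0.27 for complex III, -0.14 for complex IV and -0.27 for the ATP synthase. In bulk liver, fewer cells of a type and less RNA per cell cannot be told apart. Without pool 3 of 70% corn oil the family median was -0.11 (-0.04 over all), with 64 of 102 below 0. There were 3 calls, where 1.8% of all probe sets were called. The medians were then -0.11 for complex I, -0.01 for complex IV and -0.11 for the ATP synthase. With all arrays and the index as a covariate, the family median was -0.24 (0.02 over all), with 84 of 102 below 0. That fit had 0 calls, where 0.458% of all probe sets were called. The part of that array and of the index in the shift was not tested. The count of calls was 0 without pool 1 of 5% corn oil and 7 without its pool 3. It was 8 when pool 1 of 70% corn oil was dropped and 2 when its pool 2 was. Over all probe sets 0.675%, 3.98%, 3.56% and 0.95% were called in these fits, against 2.11% with all arrays.

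**Figure D2:**
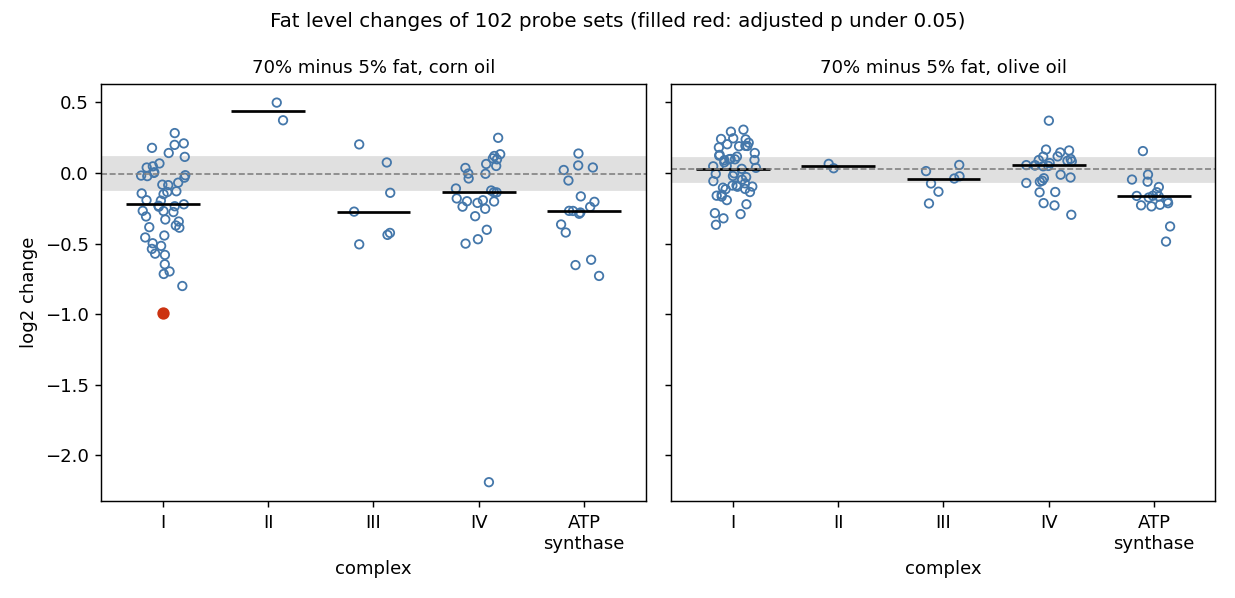
Log2 change from 5% to 70% fat of each of the 102 probe sets (circles) by complex, with corn oil on the left and olive oil on the right. Black lines are complex medians, the dashed line and grey band are the median and middle 50% of all 8740 probe sets, and 1 filled circle, Ndufa6 at -0.99 with corn oil, passed the test.

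Ndufa6, a small accessory subunit of the matrix arm of complex I, was the member that fell. Its probe set rc_AI229924_at read 1.31, 0.68 and 0.95 on the 5% corn oil arrays and 0.36, -0.36 and -0.03 on the 70% corn oil arrays. With olive oil it read -0.10, -0.18 and -0.16 at 5% fat and -0.02, 0.14 and 0.02 at 70% fat. The 5% corn oil arrays were thus the high ones, and they overlapped with none of the other 9. The change with corn oil was -0.99 ± 0.17 (SE, n = 3 arrays per diet; 1.99-fold lower, adjusted p = 0.0146). A further Ndufa6 probe set, rc_AA819547_at, stood at 0.88, 0.58 and 0.46 with 5% corn oil and at 0.47, 0.43 and -0.14 with 70%, so that the groups overlapped, and its change of -0.38 did not pass (adjusted p = 0.205). The call on rc_AI229924_at was lost without pool 1 of 5% corn oil (adjusted p = 0.0605) and, with the index as a covariate, at a change of -0.71 (adjusted p = 0.205). It was lost in 5 of 9 other settings, which were the index, a second quantile normalization, trend with robust moderation, array weights (where the 1 call was on a different probe set) and the compared arrays alone. With the mean of the probe sets as 1 value per gene, Ndufa6 changed by -0.69 ± 0.14 (adjusted p = 0.0222), 1 of 2 genes of the family that fell, where 1.01% of 4736 genes fell and 1.52% rose.

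Other members of complex I lay in the same direction without passing. Ndufa5, an accessory subunit of the same arm, read 1.05, 0.69 and 0.54 at 5% and 0.36, 0.18 and -0.20 at 70% corn oil (-0.65 ± 0.16, adjusted p = 0.0641). Ndufb2, of the membrane arm, read 0.98, 0.68 and 0.42 against 0.25, 0.22 and 0.05 (-0.52 ± 0.14, adjusted p = 0.0777). For Ndufs4, needed for a stable matrix arm, probe set rc_AI013297_g_at read 1.19, 0.73 and 0.63 against 0.57, 0.17 and -0.59 (-0.80 ± 0.23, adjusted p = 0.102). In these 3 probe sets the 5% arrays all lay above the 70% arrays. Ndufs4 had further probe sets, and as 1 value per gene it changed by -0.34 (limma adjusted p = 0.221). At the other end of complex I, the assembly factor Ndufaf3 had the largest positive change, 0.28 ± 0.13 on U95161_s_at (adjusted p = 0.263). With its 3 probe sets as 1 value per gene, Ndufaf3 changed by -0.02. Of the 49 complex I probe sets, 39 were below 0, and 1 had 70% corn oil arrays that all lay above the 5% ones.

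Both changes in complex II were above 0. Sdha, the flavoprotein that oxidises succinate, read -0.39, -0.71 and -0.43 with 5% corn oil and -0.45, 0.13 and -0.08 with 70% corn oil. Sdhaf2, which attaches the flavin to Sdha, read -0.72, -0.78 and -0.46 against -0.42, 0.00 and -0.05. On Sdhaf2 the 70% arrays all lay above the 5% arrays, while on Sdha the groups overlapped through pool 1 of 70% corn oil. The changes, 0.37 ± 0.14 for Sdha (adjusted p = 0.19) and 0.50 ± 0.12 for Sdhaf2 (adjusted p = 0.0599), did not pass.

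In complex III the lowest change was that of Uqcrfs1, the Rieske iron-sulfur protein, on probe set M24542cds_g_at. It read 0.22, 0.01 and 0.04 with 5% corn oil and -0.19, -0.24 and -0.82 with 70% (-0.51 ± 0.14, adjusted p = 0.0862), with no overlap. With its 3 probe sets as 1 value per gene, Uqcrfs1 changed by -0.29 (limma adjusted p = 0.216). Cyc1, cytochrome c1, read -0.08, -0.01 and 0.11 against -0.25, 0.03 and -1.07 (-0.44, adjusted p = 0.28), where pools 1 and 3 of 70% corn oil lay below all 5% corn oil arrays and pool 3 was the lowest. The largest positive change was 0.20 ± 0.09 on Uqcr11 rc_AA892462_at, a small subunit (adjusted p = 0.244). The mean of the 2 Uqcr11 probe sets as 1 value per gene changed by -0.04.

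Cox6c, a small nuclear-encoded subunit of complex IV, had the largest change of the family between fat levels. Probe set M27467_at read 2.51, 1.90 and 1.84 with 5% corn oil and 0.52, -1.81 and 0.98 with 70% corn oil. With olive oil it lay between -0.47 and 0.02 on all 6 arrays. The 5% corn oil arrays stood above all others, and the 70% corn oil arrays spread over more than the other groups (SD 1.5). The change of -2.19 ± 0.52 (4.56-fold lower) had an adjusted p of 0.0533. A different Cox6c probe set, M27466_at, lay between -0.16 and 0.13 on all 12 arrays and changed by -0.01. The mean of the pair as 1 value per gene was called (-1.10 ± 0.25, adjusted p = 0.0377), a value that rests on M27467_at. Cox7b, another small subunit, read 0.88, 0.48 and 0.38 against 0.24, 0.05 and -0.05 (-0.50 ± 0.14, adjusted p = 0.0874), and Cox4i2, the lung form of subunit 4, had the largest positive change at 0.25 ± 0.14 (adjusted p = 0.375).

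In the ATP synthase the lowest change was on Atp5if1, the inhibitor that blocks the enzyme when the membrane loses its proton gradient. Its probe set D13122_f_at read 0.80, 0.64 and 0.31 with 5% corn oil and 0.24, 0.03 and -0.71 with 70% (-0.73 ± 0.21, adjusted p = 0.102). With its 4 probe sets as 1 value per gene, Atp5if1 changed by -0.35 (limma adjusted p = 0.166). Atp5po, the stalk subunit OSCP that joins the catalytic head to the stator, read 1.25, 0.67 and 0.38 against 0.23, 0.01 and 0.10 on D13127_g_at (-0.65 ± 0.17, adjusted p = 0.0722). Its plain probe set D13127_at read -0.37, -0.37 and -0.26 against -0.35, -0.03 and -0.47, with overlap. The catalytic beta subunit Atp5f1b was at -0.27 and the alpha subunit Atp5f1a at -0.17, neither past the test. The largest positive change was 0.14 ± 0.17 on 1 of 2 probe sets of Atp5f1d, the delta subunit (adjusted p = 0.729). As 1 value per gene Atp5f1d changed by -0.05.

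With olive oil 0 of 102 probe sets passed between fat levels by limma, where 0.435% of all probe sets did. At an unadjusted p under 0.05 there were 9 members (8.82%), against 8.46% of all. The family median was -0.02 against 0.03 over all, with medians of 0.03 in complex I, 0.05 in complex II, -0.04 in complex III and 0.05 in complex IV. The ATP synthase was lower, with a median of -0.17 and 16 of 17 probe sets, of 10 genes, below 0, where 40.8% of all probe sets were. Only 1 of the 17 (5.88%) had an unadjusted p under 0.05, against 8.46% of all. On 6 of these 17 the 70% olive oil arrays all lay below the 5% ones, as for 7.01% of all probe sets. The ATP synthase probe set farthest below 0 was Atp5if1 M35300_f_at at -0.49 ± 0.31 (adjusted p = 0.767), and Atp5pd was the 1 above 0, at 0.15 ± 0.19. In complex I the range ran from -0.37 ± 0.24 on Ndufaf3 (rc_AI171562_at) to 0.31 ± 0.13 on Ndufb8, and Ndufa9 read 0.29 ± 0.09. In complex III it ran from -0.22 ± 0.09 on Uqcr11 to 0.06 ± 0.10 on Uqcrc2, and in complex IV from -0.30 ± 0.15 on Cox6b1 to 0.37 ± 0.13 on Cox6a2.

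Whether the fat effect differed between the oils was tested as an interaction. By limma 0 of 102 members passed, as did 0% of all 8740 probe sets, and 23 members (22.5%) had an unadjusted p under 0.05, against 11.8% of all. The smallest p belonged to Ndufa6 rc_AI229924_at, whose effect with corn oil was 1.18 ± 0.25 below that with olive oil (-1.18, adjusted p = 0.255). The mean of both fat effects gave 0 calls by limma (1.25% of all probe sets rose and 1.03% fell, 2.28% in all), 27 members (26.5%, against 14.5% of all) at an unadjusted p under 0.05, and a family median of -0.08 against 0.01 over all. As 1 value per gene 0 passed as well, where 1.08% of all genes rose and 1.1% fell. Without pool 1 of 70% corn oil the mean fat effect had 4 calls, and without pool 2 of that diet or pool 3 of 5% corn oil it had 1. Over all probe sets 2.67%, 1.9% and 2.51% were called in these fits.

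The oils differed in more of the family than the fat levels did. At 5% fat, 28 of 102 probe sets (27.5%) were higher with corn than with olive oil and 12 (11.8%) were lower. Over all probe sets these shares were 10.1% and 9.36%, or 19.5% either way. The family median was 0.14 against 0.06 over all. On 49 members the corn oil arrays all lay above the olive oil arrays (25.1% of all), and on 23 they all lay below (16.2% of all). After a second quantile normalization 19 were higher and 14 lower (17.4% of all probe sets passed). The 3'/5' index differed by 1.64 in this comparison (exact permutation p = 0.1, the smallest possible), and with it as a covariate 0 members and 0 of 8740 probe sets passed by limma, while the median SE over all probe sets went from 0.13 to 0.33. In that fit the family median was 0.38 (-0.04 over all). The comparison shares its 5% corn oil arrays with the fat comparison of that oil. Of the 16 hepatocyte marker probe sets (7 of 8 genes measured), 5 were lower with corn oil and 0 higher. The median difference of the 16 was -0.13. The lowest was -2.52 on a Cps1 probe set, where further Cps1 probe sets were at 0.05 and 0.14. Array means over the 16 lay between -0.31 and -0.17 with corn oil and between 0.05 and 0.13 with olive oil. The part of these markers in the differences was not tested.

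Complex I accounted for 15 of the higher and 4 of the lower probe sets, with a median of 0.22. Ndufv3, an accessory subunit of the NADH-oxidising module, had the smallest p of the family on AB000098_g_at. Its values were 0.59, 0.53 and 0.42 with 5% corn oil and -0.24, -0.31 and -0.29 with 5% olive oil, and 0.24, 0.30 and 0.29 against -0.48, -0.30 and -0.52 at 70% fat. Every corn oil array lay above every olive oil array, by 0.79 ± 0.08 at 5% (1.73-fold, adjusted p = 0.000196) and by 0.71 ± 0.08 at 70% (adjusted p = 0.00155). The plain Ndufv3 probe set AB000098_at was at 0.18 at 5% fat and did not pass. Both Ndufa6 probe sets were higher at 5% fat, by 1.13 ± 0.17 (2.18-fold, adjusted p = 0.000985) and 0.78 ± 0.15. Ndufb1 (1.0 ± 0.28), Ndufb2 (0.85 ± 0.14), Ndufb5 (0.58 ± 0.19), Ndufb10 (0.58 ± 0.19) and Ndufb11 (0.55 ± 0.14), all of the membrane arm, were higher too. So were Ndufab1, the mitochondrial acyl carrier protein (0.93 ± 0.27), Ndufs4 (0.92 ± 0.23), Ndufa5 (0.89 ± 0.16), Ndufa4l2, a paralog of Ndufa4 (0.50 ± 0.12), Ndufa9 (0.48 ± 0.09) and Ndufa3 (0.37 ± 0.10), each on 1 probe set. Ndufb5, Ndufb11, Ndufab1, Ndufs4 and Ndufa4l2 had further probe sets that did not pass. As 1 value per gene none of them passed (0.15 to 0.40, limma adjusted p from 0.113 to 0.335). The plain probe sets paired with the called ones were at -0.02 for Ndufb11, -0.07 for Ndufs4 and 0.26 for Ndufab1. The lower complex I probe sets included the core iron-sulfur subunit Ndufs1 (-0.47 ± 0.11) and the assembly factor Ndufaf3 on U95161_s_at (-0.65 ± 0.13). With its 3 probe sets as 1 value per gene, Ndufaf3 was at -0.04 (limma adjusted p = 0.816). Ndufs8, a core iron-sulfur subunit, had calls both ways: AA685112_at was at -1.05 ± 0.26 and rc_AA851379_at at -0.30 ± 0.07, while rc_AA799479_g_at was at 0.61 ± 0.10 and rc_AA799479_at at 0.03.

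Both probe sets of complex II were lower with corn oil at 5% fat. Against the 5% corn oil values given above, Sdha read 0.22, 0.20 and -0.04 with 5% olive oil and Sdhaf2 read 0.19, 0.23 and 0.00. All 3 corn oil arrays lay below all 3 olive oil arrays for each. The differences were -0.63 ± 0.14 for Sdha (1.55-fold lower, adjusted p = 0.00925) and -0.79 ± 0.12 for Sdhaf2 (1.73-fold lower, adjusted p = 0.00103). At 70% fat they were -0.29 ± 0.14 (adjusted p = 0.251) and -0.36 ± 0.12 (adjusted p = 0.0943).

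In complex III the probe sets of Uqcrfs1 separated. M24542cds_at read -0.73, -0.77 and -0.56 with 5% corn oil, -0.57, -0.22 and -1.04 with 70% corn oil, and between 0.22 and 0.44 on all 6 olive oil arrays. All corn oil arrays were thus low, by -1.02 ± 0.16 at 5% fat (2.03-fold lower, adjusted p = 0.00117) and by -0.92 ± 0.16 at 70% (adjusted p = 0.00731). The probe set rc_AI103911_at read 0.80, 0.25 and 0.42 with 5% corn oil against -0.01, -0.03 and -0.08 with 5% olive oil, a difference of 0.53 ± 0.13 in the opposite direction. A further one, M24542cds_g_at, was at 0.09 and did not pass. Uqcr11 was higher with corn oil at both fat levels on rc_AA926137_s_at, by 0.62 ± 0.12 and 0.48 ± 0.12, and on rc_AA892462_at at 70% fat alone (0.32 ± 0.09). The call on rc_AA892462_at was lost without any of the 12 single arrays (adjusted p up to 0.182).

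**Figure D3:**
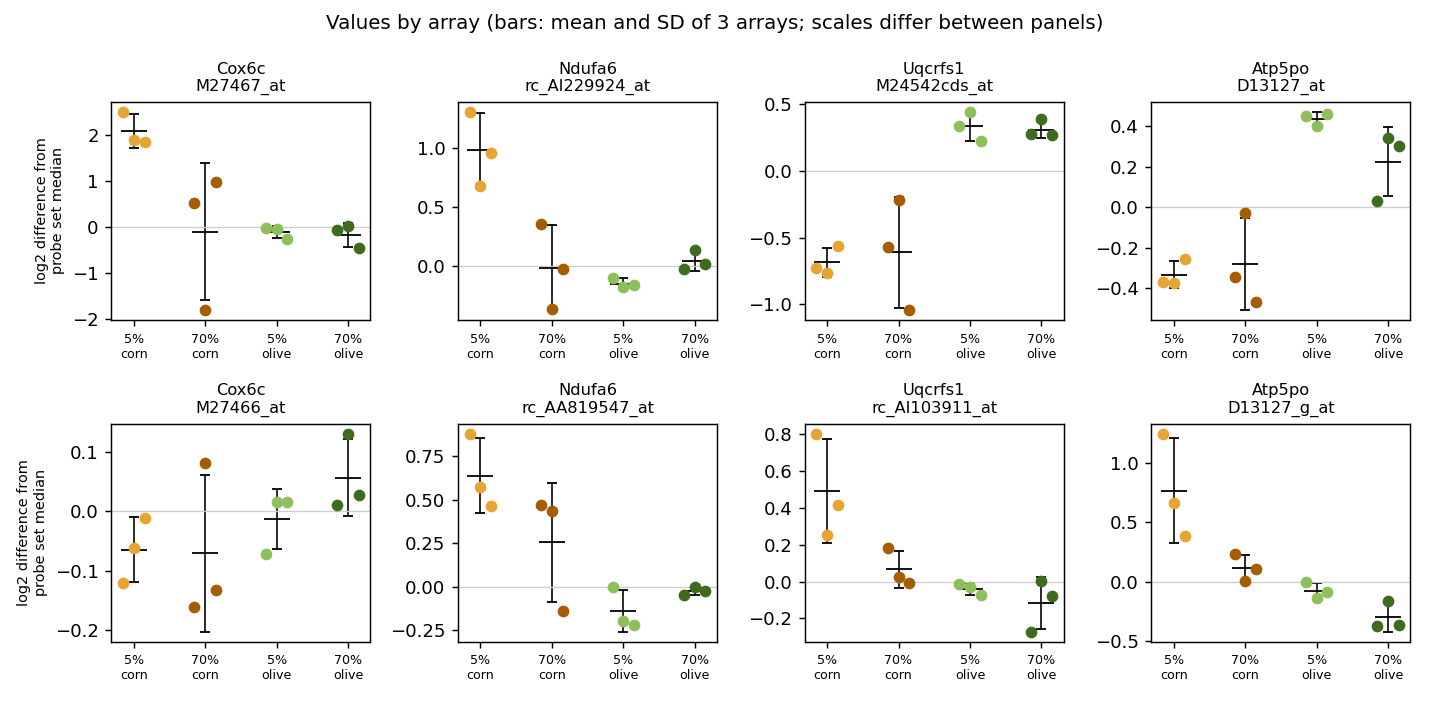
Values of 8 probe sets on the 12 arrays (points; log2 difference from the probe set's median), with the mean and SD of 3 arrays per diet; each column holds 2 probe sets of 1 gene and the vertical scales differ. For Uqcrfs1 and Atp5po the corn oil arrays lie low in the upper panel and high in the lower panel, and Cox6c M27467_at spans -1.81 to 2.51 where M27466_at spans -0.16 to 0.13.

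In complex IV 6 probe sets were higher and 4 lower with corn oil at 5% fat. Cox6c M27467_at was higher by 2.19 ± 0.52 (4.58-fold, adjusted p = 0.0117), with all 3 arrays above, and at 70% fat its difference was 0.07. With the index as a covariate the difference at 5% fat turned to -1.93 and did not pass. Cox7b (0.72 ± 0.14), Cox5a, a matrix-side subunit (0.53 ± 0.14), and Cox6b1, which faces the intermembrane space (0.43 ± 0.11), were higher. The other Cox6b1 probe set did not pass, and neither did Cox6b1 as 1 value per gene (0.19, limma adjusted p = 0.294). Cox5b, a zinc-binding matrix-side subunit, read -0.34, -0.36 and -0.14 with 5% corn oil and 0.49, 0.52 and 0.52 with 5% olive oil on D10952_i_at, and was lower at 5% (-0.79 ± 0.14) and at 70% fat (-0.53 ± 0.14). Its other probe set was at 0.03 at 5% fat and did not pass.

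Some subunits of complex IV have forms in different tissues. Cox4i1, the form found in most tissues, had rc_AA818226_s_at higher with corn oil (0.60 ± 0.10 at 5% and 0.40 ± 0.10 at 70%) and X54081mRNA_i_at lower (-0.41 ± 0.10 and -0.40 ± 0.10), while Cox4i2 was at -0.13 and 0.03. Cox8a, the liver form of subunit 8, was lower with corn oil at 5% fat on rc_AI102505_at (-0.52 ± 0.10) and rc_AI102505_g_at (-0.48 ± 0.13). At 70% fat rc_AI102505_at was lower again (-0.40 ± 0.10) but M28255_s_at was higher (0.34 ± 0.08). Cox8b, the heart and muscle form, was higher at 5% fat on U40836mRNA_s_at (0.24 ± 0.08, adjusted p = 0.0448), from 0.08, 0.14 and 0.17 with corn oil and -0.15, -0.13 and -0.06 with olive oil. That call was lost without any of 10 single arrays (adjusted p up to 0.134). Cox6a1, the liver form of subunit 6a, was at -0.79 ± 0.27 on X72757_g_at (adjusted p = 0.0621), and 0 probe sets of its muscle form Cox6a2 passed at either fat level, at 0.13 to 0.35 at 5% and -0.33 to -0.16 at 70%. At 5% fat 1 of the 8 probe sets on the striated muscle marker list was lower with corn oil and 0 were higher.

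The ATP synthase had 5 probe sets higher and 1 lower with corn oil at 5% fat. Atp5po gave calls in both directions from the same gene. On D13127_at the 5% corn oil arrays (-0.37, -0.37 and -0.26) lay below the 5% olive oil arrays (0.45, 0.40 and 0.46), by -0.77 ± 0.12 (1.71-fold lower, adjusted p = 0.000902). On D13127_g_at they lay above, at 1.25, 0.67 and 0.38 against -0.01, -0.14 and -0.09, by 0.84 ± 0.17 (1.79-fold higher, adjusted p = 0.00473). Atp5pf, coupling factor 6 of the stalk, was higher by 0.94 ± 0.28 on X54510_g_at, Atp5f1e, the epsilon subunit, by 0.70 ± 0.12, Atp5if1 by 0.45 ± 0.11 and Atp5f1b by 0.43 ± 0.10. Further probe sets of Atp5pf, Atp5f1e and Atp5if1 did not pass at 5% fat. As 1 value per gene Atp5f1e passed (0.51), while Atp5pf (0.49, limma adjusted p = 0.197) and Atp5if1 (0.26, limma adjusted p = 0.199) did not. At 70% fat Atp5f1e (0.44 ± 0.12) and Atp5po D13127_at (-0.51 ± 0.12) passed. The Atp5f1e call at 70% fat was lost without any of 10 single arrays (adjusted p up to 0.153) and in 7 of 9 other settings. Atp5pb, the b subunit of the stator, read -0.59, 0.02 and -1.98 with 70% corn oil and -0.01, 0.14 and 0.19 with 70% olive oil, a difference of -0.95 ± 0.36 that did not pass (adjusted p = 0.126).

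Opposite calls from 1 gene were more frequent here than over all genes in these counts. Of 28 genes with several probe sets, 6 had at least 2 called at 5% fat, and 4 of these had calls in both directions (Atp5po, Cox4i1, Ndufs8 and Uqcrfs1), where 54 of 169 such genes (32%) did over all. At 70% fat it was 2 of 3 (Cox4i1 and Cox8a), against 5 of 57 (8.77%). The median range between probe sets of 1 gene was 0.74 at 5% fat for the 28 genes and 0.32 over 1565 genes, and 6 of the 28 spanned over 1 on the log2 scale: Atp5po, Cox4i1, Cox6c, Ndufaf3, Ndufs8 and Uqcrfs1. Names ending in _g_at mark a further probe set for a sequence that also has a plain one. In 11 of 13 such pairs (84.6%) the _g_at difference was the higher, against 65.5% of 906 pairs over all. These shares are descriptions of the array's probes and carry no test.

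**Figure D4:**
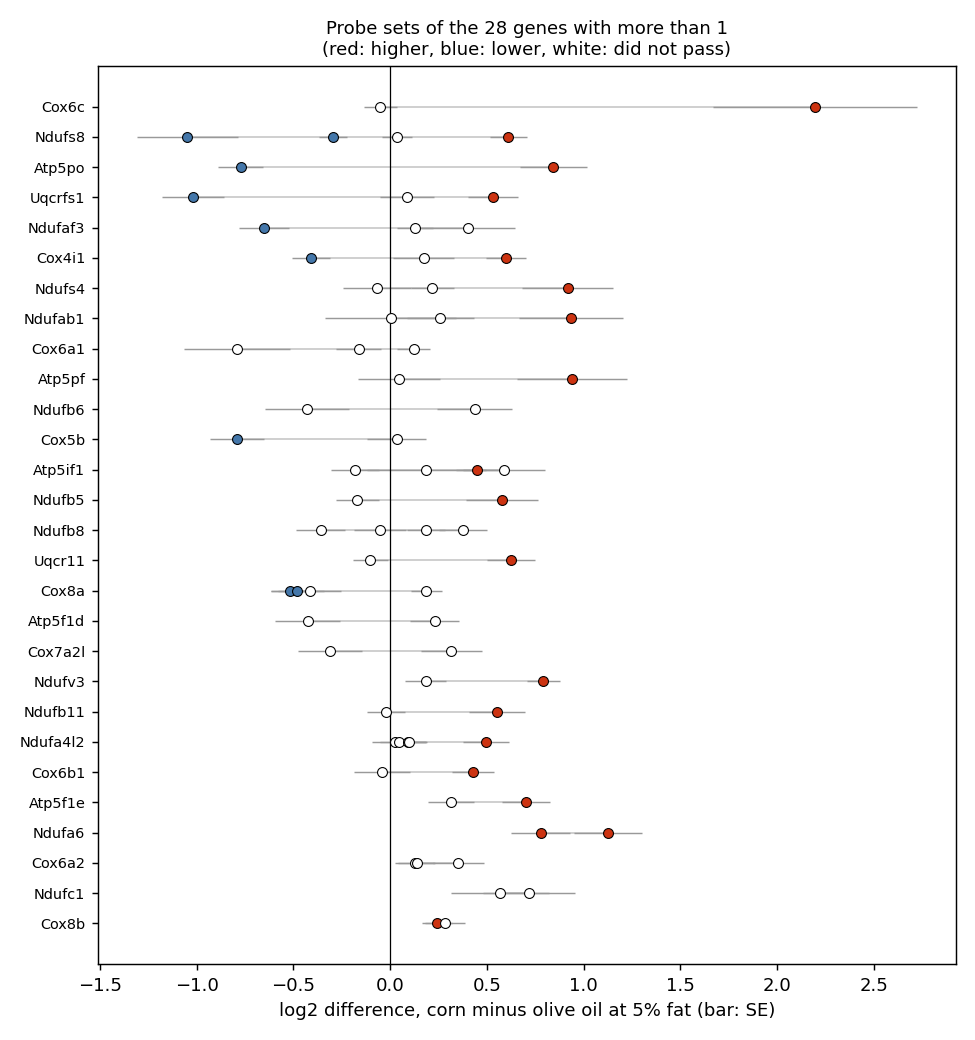
Log2 difference, corn minus olive oil at 5% fat, of every probe set of the 28 genes with more than 1 (points with SE), ordered by the range within a gene. Red points passed the test as higher and blue as lower; Atp5po, Cox4i1, Ndufs8 and Uqcrfs1 have both colours.

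At 70% fat the oil difference reached 15 members, 7 higher (6.86%) and 8 lower (7.84%) with corn oil, against 3.96% and 4.55% of all probe sets and 8.51% either way. The family median was -0.03 against 0.01 over all. With each array centred on its median the counts were 4 higher and 9 lower (7.99% of all probe sets passed). After a second quantile normalization they were 11 higher and 14 lower (12.2% of all), and the family median turned to 0.02. The index differed by 1.06 (exact permutation p = 0.1), and 0 members passed by limma with it as a covariate, as 0 of all probe sets did. In that fit the family median was 0.20 (-0.04 over all), and the median SE over all probe sets went from 0.13 to 0.23. Ndufb11 had the largest positive difference, on rc_AA893690_g_at, with 0.36, 0.51 and 0.56 for corn oil and -0.40, -0.22 and -0.22 for olive oil (0.76 ± 0.14, adjusted p = 0.00979), and no overlap. Ndufs1 read -0.37, -0.22 and -0.11 against 0.21, 0.39 and 0.47 (-0.59 ± 0.11, adjusted p = 0.00958), again with no overlap. Ndufa8, a subunit on the intermembrane side, read -0.21, -0.14 and -1.05 against 0.37, 0.22 and 0.14 (-0.71 ± 0.19, adjusted p = 0.0374), and Ndufs8 rc_AA851379_at was lower by -0.33 ± 0.07. Apart from Atp5pb, given above, the largest differences that did not pass were -0.72 ± 0.26 on Ndufs8 AA685112_at, -0.62 ± 0.27 on Cox6a1 X72757_g_at, -0.60 ± 0.22 on Ndufb6 and 0.56 ± 0.19 on Ndufb10.

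The oil comparisons at 5% and 70% fat share no arrays, although they share the estimate of spread. The sign was the same for 75 of 102 members (73.5%, against 67.6% of all probe sets). Of the members called, 12 passed at both fat levels in the same direction, 5 higher and 7 lower, which is 30% of the 40 at 5% and 80% of the 15 at 70%. Over all probe sets these shares were 32.9% and 75.3%. None of the members was called in opposite directions. The 12 were probe sets of Ndufs1, Ndufs8, Ndufv3, Ndufb11, Uqcrfs1, Uqcr11, Cox4i1 (both called ones), Cox5b, Cox8a, Atp5f1e and Atp5po. For the mean of both oil effects 27 members were higher and 19 lower with corn oil, where 13.1% and 11.1% of all probe sets were (24.3% either way). As 1 value per gene, 18 of the 56 genes passed at 5% fat, where 8.42% of 4736 genes were higher and 8.49% lower with corn oil. At 70% fat 4 of 56 passed (3.42% higher and 3.51% lower over all genes), and for the mean of both 23 of 56 did (11.9% and 9.95% over all genes). The index is part of each of these comparisons.

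**Figure D5:**
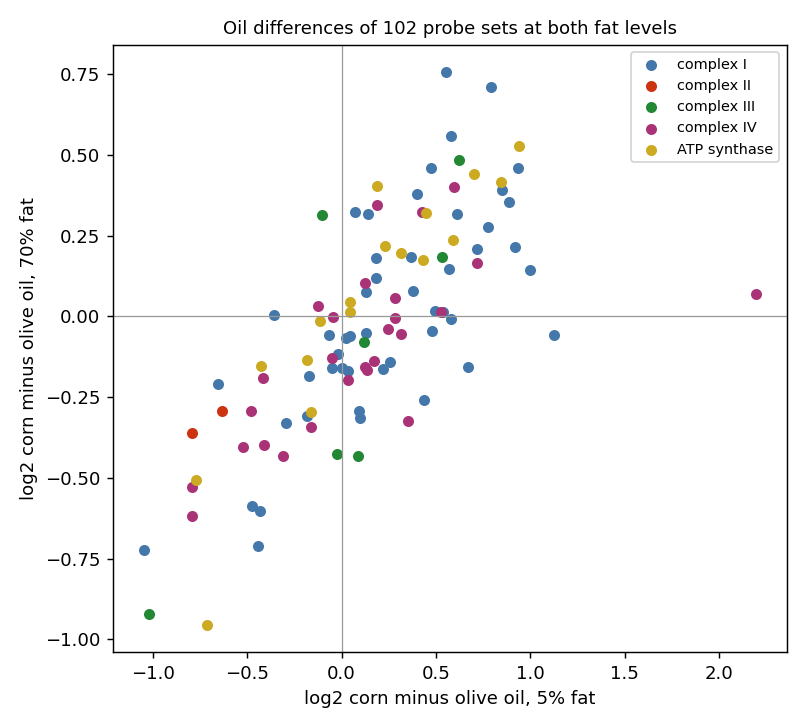
Log2 difference between corn and olive oil at 5% fat (horizontal axis) and at 70% fat (vertical axis) for the 102 probe sets, coloured by complex. Of these, 75 have the same sign on both axes; the point at 2.19 on the horizontal axis is Cox6c M27467_at.

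Part of the oil calls depended on single arrays. At 5% fat 21 of 40 calls held without each array in turn, among them both Ndufa6, both Atp5po and both complex II calls, Ndufv3, Ndufa5, Ndufb2, Uqcrfs1, Cox6c and Cox7b. The highest adjusted p among the others was 0.185. Leaving out pools 1, 2 and 3 of 5% corn oil kept 26, 32 and 36 of the 40, and leaving out those of 5% olive oil kept 32, 28 and 27. At 70% fat Ndufb11, Ndufs1, Ndufv3 and Uqcrfs1 kept their calls, 4 of 15. Leaving out pools 1, 2 and 3 of 70% corn oil kept 7, 11 and 8 of the 15, and leaving out those of 70% olive oil kept 7, 5 and 4. The count of all family calls at 70% fat was 23 without pool 2 of 70% corn oil, where 13.3% of all probe sets were called.

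Other mitochondrial genes were counted in the same fits. Over all probe sets 10.1% were higher and 9.36% lower with corn oil at 5% fat, and 3.96% and 4.55% at 70% fat. Between fat levels 2.11% passed with corn oil and 0.435% with olive oil. Of 11 probe sets of the citrate cycle (7 of 15 genes measured), Suclg1, a succinyl-CoA ligase subunit, rose with fat in corn oil on 1 probe set (0.45 ± 0.10, adjusted p = 0.041), and with olive oil 0 passed. At 5% fat 2 were higher with corn oil and 1 lower, and at 70% fat 2 were higher. Of 17 probe sets of mitochondrial carriers (10 of 13 genes), 0 passed between fat levels. At 5% fat 1 was higher and 6 lower with corn oil. The lower ones included the outer membrane channel Vdac1 (-1.49 ± 0.16 and -1.59 ± 0.20) and 1 probe set of the oxoglutarate carrier Slc25a11 (-1.29 ± 0.16). The other Slc25a11 probe set was at 0.15 and did not pass (limma, adjusted p = 0.436). At 70% fat 3 carrier probe sets were lower. Of 9 probe sets for other routes of electron entry (4 of 5 genes) 0 passed between fat levels. At 5% fat 3 were higher and 2 lower, and at 70% fat 1 was lower. Etfdh, which passes electrons from fatty acid oxidation to ubiquinone, was at -2.16 ± 0.26 on 1 of its probe sets at 5% fat. Its other probe sets were at 0.40 and -0.16 and did not pass (limma, adjusted p = 0.166 and 0.864). Of 5 probe sets of regulators of mitochondrial genes (4 of 15 genes) 0 passed in the fat and oil comparisons, and Esrra was higher in the mean of both oil effects on 1 of its 2 probe sets (0.21 ± 0.07, adjusted p = 0.0479; the other was at -0.06). Of 11 listed assembly genes 0 were measured.

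Markers of liver cell types were counted in the same fits, and their part in the family's values was not tested. Of all probe sets, 10.1% were higher and 9.36% lower with corn oil at 5% fat, and 3.96% and 4.55% at 70% fat. From 5% to 70% fat, 1.3% of all rose and 0.801% fell with corn oil, and 0.126% and 0.309% with olive oil. Between fat levels with corn oil, 1 hepatocyte probe set of 16 rose and 1 lymphocyte probe set of 6 fell, and with olive oil 1 of 6 Kupffer cell and macrophage probe sets fell. Lymphocyte array means lay between 0.13 and 0.26 with 5% corn oil and between -0.07 and 0.14 with 70%. At 5% fat, 3 of 11 stellate cell probe sets were higher with corn oil, with array means of 0.04 to 0.27 against -0.38 to -0.01 with olive oil. In the same comparison 1 of 6 Kupffer cell and macrophage probe sets was lower, 1 of 6 lymphocyte probe sets was higher, and of 4 endothelial probe sets 1 was higher and 1 lower. At 70% fat 1 stellate probe set was higher, 1 hepatocyte probe set was lower, and the Kupffer cell and macrophage list had 1 in each direction. Of 2 erythroid probe sets 0 passed in any of these comparisons.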

How the data were processed

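The arrays were processed with GCOS and RMA (versions not stated), per the submitters' processing notes. The table the authors deposited holds log2 values of 8799 probe sets on 12 single-colour arrays, with each probe set centred on its median over the arrays (within 1e-06 for 100% of them). The base of the log is not written in the table and was taken as 2. Centred values allow no filter on low levels, although that filter had been listed. The 59 array controls were left out and 8740 probe sets tested. Genes were named from the platform annotation, and all 102 family symbols were the same in GRCr8.

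Tests used limma 3.58.1 in R 4.3.3: 1 mean per diet, all arrays sharing 1 spread per probe set (8 residual degrees of freedom), eBayes, two-sided p-values, Benjamini-Hochberg adjustment within a contrast, threshold 0.05. The code was tested on simulated data. The number of arrays limits the precision. For 1 value per gene, probe sets were averaged over 4736 genes. Alternatives were a second quantile normalization, centring, trend with robust moderation, array weights, pool number as a block, only the compared arrays, the 3'/5' index as a covariate, 1 value per gene, a minimum difference of 1.5-fold, and fits without each array in turn.

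The members, the lists (citrate cycle, carriers, electron entry, assembly, regulators, cell type markers) and the tests were chosen with earlier results of these data known. Named with values were members past the threshold, the largest rise and fall per complex and contrast, genes whose probe sets differed by over 1 log2, and tissue forms.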

Additional observations from a re-analysis of the deposited data

How the results depend on the processing

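Counts of members past the test depended on the fit. For fat with corn oil the count of 1 became 0 after a second quantile normalization, with trend and robust moderation, on the arrays of the compared groups alone and with the 3'/5' index, and 2 with 1 value per gene; without single arrays it ranged from 0 to 8 (8 without pool 1 of 70% corn oil, 7 without pool 3 of 5% corn oil, 3 and 2 without pools 3 and 2 of 70% corn oil, 0 without pool 1 of 5% corn oil). The share of all probe sets called moved too, from 0.458% with the index to 3.98% without pool 3 of 5% corn oil (2.11% in the main fit). For fat with olive oil and for the interaction the count stayed at 0 in all settings run. The mean fat effect had 1 call after quantile normalization and 0 to 4 without single arrays. Over all probe sets 2.11% and 1.33% to 2.67% were called in these fits, against 2.28% in the main fit. For the oils at 5% fat the 40 became 61 with array weights, 0 with the index, 23 at 1.5-fold or more and 18 genes. Without single arrays the count ranged from 26 (without pool 1 of 5% corn oil) to 56 (without pool 3 of 70% corn oil). Over all probe sets 30.1% were called with array weights and 0% with the index. It was 13.6% and 23.6% without those 2 pools, against 19.5% in the main fit. At 70% fat the 15 became 25 after quantile normalization, 4 on the compared arrays, 0 with the index, 5 at 1.5-fold and 4 genes. Without single arrays it was 4 (pool 3 of 70% olive oil) to 23 (pool 2 of 70% corn oil). Over all probe sets 12.2% were called after quantile normalization, 3.82% on the compared arrays and 0% with the index. Without those 2 pools it was 3.56% and 13.3%, against 8.51% in the main fit. The 46 of the mean oil effect became 0 with the index, 14 at 1.5-fold and 23 genes, with 37 to 55 without single arrays. Over all probe sets 0% were called with the index and 19.8% to 26.4% without single arrays, against 24.3% in the main fit.

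The sign of called oil differences turned in at least 1 setting for 10 of 40 calls at 5% fat and 2 of 15 at 70%. With the index, at 5% fat, these were Ndufs8 (0.84), Ndufa4l2 (-0.19), Cox6c (-1.93), Cox8a (0.43), Cox5a (-0.23) and Ndufaf3 (0.12), none past the test. As 1 value per gene, probe sets of opposite sign averaged to 0.035 for Atp5po, -0.17 for Ndufs8, -0.13 for Uqcrfs1 and 0.12 for Cox4i1 at 5% fat, and to -0.14 for Cox8a and -0.046 for Cox4i1 at 70%.

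No pairing of the arrays by pool number was seen. Over 18 pairs of equal number the correlation of deviations ran from -0.19 to 0.23, with 3 over 0.1. The median was 0.012 for these and -0.028 for pairs of other numbers, and 3 arrays per diet are too few to settle it. With the number as a block there were 5 calls for fat with corn oil, 0 with olive oil, and 43 and 11 for the oils at 5% and 70% fat. There were 0 for the interaction, 2 for the mean fat and 47 for the mean oil effect. Over all probe sets 2.53%, 0.423%, 18.6%, 7.44%, 0.0114%, 2.14% and 23.5% were called, in the same order.

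The filter on low values was not run, since the values are centred, and the interaction and the mean effects use all 12 arrays, so the fit on compared arrays gives nothing for them. Signal over background is unknown, and 3 pools per diet limit what can be detected.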

Other observations

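Of the subunits encoded in mitochondrial DNA, which the choice by prefix leaves out and which were looked at after values had been seen, the array held 4 probe sets of COX1, COX2 and COX3, the catalytic core of complex IV. By limma 0 of the 4 passed in any comparison. For fat with corn oil 2 had an unadjusted p under 0.05, as did 18.8% of all probe sets. COX2 read 0.44, 0.17 and 0.32 with 5% corn oil and 0.12, -0.27 and -0.62 with 70% corn oil (-0.57, adjusted p = 0.0837). Its 70% arrays all lay below the 5% ones, as for 10.4% of all probe sets. COX3 read 0.37, 0.27 and 0.08 against 0.14, -0.16 and -0.78 (-0.51, adjusted p = 0.159), with overlap. The lowest value of both was on pool 3 of 70% corn oil, the array on which complex I and the ATP synthase were also lowest. The COX1 probe sets changed by -0.01 and 0.03, and on that array read 0.04 and 0.22. With olive oil all 4 changes between fat levels lay between 0.04 and 0.12.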
